A study of Mus musculus with 6 samples.

Results

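The ISG15 conjugation system is described here through its 5 genes in mouse tumour monocytes: Isg15, the ligand; Uba7, its activating enzyme (E1); Ube2l6, its conjugating enzyme (E2); Herc6, its main ligase in the mouse (E3); and Usp18, the protease that removes it again. They were chosen by their role, with earlier results of these data known, and matched by symbol. All 5 were found among the 56980 genes of the deposited table and were among the 16010 that passed the filter on low counts. The libraries hold RNA of CD11b+, Ly6C-high, Ly6G-negative monocytes sorted from B16F10 tumours (B16F10-mCherry in the design text), a mouse melanoma line that is transplanted to form tumours, and the genotype of all 6 samples is given as WT. There were 3 libraries labelled LNP-Gsdme and 3 labelled LNP-GFP, where LNP is the usual short form of lipid nanoparticle, Gsdme encodes gasdermin E, a protein that forms pores in the cell membrane, and GFP is green fluorescent protein. Both groups thus carry an LNP label and none is untreated. The series title speaks of gasdermin E encoded as mRNA and delivered in situ, and the aim it and the design text give is to follow gene expression in tumour monocytes after LNP-Gsdme. The labels do not state the dose or the time of sampling, and they give no strain, age or number of animals for a library. They do not say whether animals were pooled either.

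ISG15 is a small protein built of a pair of ubiquitin-like domains, and it is one of the most strongly interferon-induced proteins known. An enzyme cascade like that of ubiquitin joins its C-terminus to lysines of other proteins: UBA7 activates it, UBE2L6 takes it over and a HERC ligase transfers it, often to proteins that are just being made. In humans the main ligase is HERC5, a gene that mice lack, and HERC6 takes its place. USP18 cleaves ISG15 off its targets and, apart from that activity, binds the type I interferon receptor and dampens its signal. ISG15 also occurs free and is secreted, and in this form it acts on lymphocytes as a cytokine-like signal. All 5 genes are themselves interferon-stimulated, and interferon acts on such genes through promoter elements built on GAAANNGAA.

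The promoter windows of the 3 members that passed the test below are shown because these genes passed together. They are RefSeq sequences on GRCm38.p6, from 250 bases before to 50 after the annotated gene start, written 5′ to 3′ in the direction of transcription, with every match to GAAANNGAA on either strand in capitals. The Isg15 window is chr4:156200769-156201068 on the minus strand, the Uba7 window chr9:107975317-107975616 on the plus strand and the Herc6 window chr6:57580742-57581041 on the plus strand.
Isg15: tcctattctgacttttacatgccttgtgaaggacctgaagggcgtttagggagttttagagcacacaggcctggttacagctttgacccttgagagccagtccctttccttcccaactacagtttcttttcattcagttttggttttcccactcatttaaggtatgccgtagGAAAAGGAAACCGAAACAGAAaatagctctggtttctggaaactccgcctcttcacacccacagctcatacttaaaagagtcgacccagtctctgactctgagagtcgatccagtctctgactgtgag
Uba7: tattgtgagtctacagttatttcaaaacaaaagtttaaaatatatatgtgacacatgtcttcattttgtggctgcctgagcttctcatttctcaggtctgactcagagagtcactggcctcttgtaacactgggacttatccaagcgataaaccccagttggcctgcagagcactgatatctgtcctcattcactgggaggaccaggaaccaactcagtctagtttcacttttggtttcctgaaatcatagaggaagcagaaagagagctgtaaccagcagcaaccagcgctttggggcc
Herc6: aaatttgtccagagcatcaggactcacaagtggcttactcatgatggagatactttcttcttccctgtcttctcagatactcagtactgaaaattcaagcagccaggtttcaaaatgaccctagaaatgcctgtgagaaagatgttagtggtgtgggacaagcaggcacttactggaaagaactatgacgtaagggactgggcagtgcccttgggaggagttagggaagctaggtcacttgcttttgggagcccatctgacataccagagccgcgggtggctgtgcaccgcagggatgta
The Isg15 window held 3 overlapping matches, which started at positions -78, -72 and -66 relative to the gene start and ran together into 1 block. The Uba7, Herc6 and Ube2l6 windows held 0 matches within these 300 bases. Of all 32851 windows of this length in the table, 8.56% held at least 1 match. Usp18 has no window here.

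Totals ran from 15991826 to 18751784 counts in LNP-Gsdme and from 20233559 to 22932095 in LNP-GFP. LNP-GFP 3 stood apart from the other libraries: over 10932 genes it was close to an even mean of LNP-GFP 1 and 2 (weight 0.479). Its median squared residual was 1.96 times that of counting error, against 3.48 to 8.1 times when each of the other 5 libraries was fitted as a mean of the other two of its group. It lay between LNP-GFP 1 and 2 in 5 of the 5 members and in 61.9% of all tested genes, so the members' results are given with and without it. Gsdme itself stood at 3.43, 2.68 and 3.2 CPM (counts scaled to library size with TMM factors) in LNP-Gsdme 1 to 3, against 2.79, 4.44 and 3.95 CPM in LNP-GFP 1 to 3, and did not pass the test (log2 fold change -0.26, edgeR adjusted p = 0.45). Of the sort markers, Ly6g stayed below 1 CPM in each library and Itgam, which encodes CD11b, was at 327 to 562 CPM in LNP-Gsdme and 365 to 632 CPM in LNP-GFP. Ly6c2, which encodes the Ly6C antigen of the gate, was at 1374 to 1856 CPM in LNP-Gsdme and at 211 to 267 CPM in LNP-GFP (log2 fold change 2.66, edgeR adjusted p = 0.00219). The part of this difference within the sorted gate in the results below was not tested. Nothing ties the libraries to separate animals, so every p-value here reflects library-to-library spread, part or all of which may be technical.

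The ligand, the E1 and the E3 rose about 2-fold in LNP-Gsdme, and the E2 and the deconjugase had fold changes of the same size but did not pass. Of the 5 members, Isg15, Uba7 and Herc6 passed upwards, 0 fell and 2 did not pass (edgeR quasi-likelihood test, Benjamini-Hochberg adjusted p below 0.05 over all genes). Over all 16010 tested genes, 6.3% passed upwards and 5.32% downwards. The members' median log2 fold change was 0.95, beside -0.01 for all tested genes. The number of members that passed depended on single libraries: it was 0 without LNP-GFP 3, with 3 at an unadjusted p below 0.05, and 1, namely Herc6, without LNP-Gsdme 1 or without LNP-Gsdme 2. In those fits the share of all genes passing upwards also fell, to 0.395% without LNP-GFP 3, 0.647% without LNP-Gsdme 1 and 0.721% without LNP-Gsdme 2. The 3 genes passed without LNP-Gsdme 3, LNP-GFP 1 or LNP-GFP 2, where 5.63%, 9.96% and 3.67% of all genes passed upwards.

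DESeq2 called all 5 members, with 9.93% of all genes higher and 9.71% lower. Isg15, Uba7 and Herc6 were again those that passed with limma-voom (6.6% of all genes higher, 5.58% lower), with upper-quartile factors (5.34% higher, 6.59% lower) and with library size only (6.95% higher, 4.58% lower). The same 3 passed with RLE factors (6.22% of all genes higher), without a filter on low counts (2.52%), with a stricter filter (7.32%) and without robust fitting (6.36%). With the replicate number as a block Ube2l6 and Herc6 passed, beside 0.643% of all genes. With LNP-GFP 1 alone against LNP-Gsdme, where the lone library is assumed to vary like the LNP-Gsdme libraries, 0 members passed, with 5 at an unadjusted p below 0.05. In that fit 0.0477% of all genes passed upwards, so it says little about the members.

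Isg15 (chromosome 4, 156283912 to 156285253, GRCm39) is a short gene, whose only GENCODE M21 transcript has 2 exons and 756 bases. It stood at 728, 721 and 596 CPM in LNP-Gsdme 1 to 3, against 286, 370.4 and 340.3 CPM in LNP-GFP 1 to 3. The groups did not overlap, and the lowest LNP-Gsdme library was well above the highest LNP-GFP library; 19.6% of all tested genes were higher in LNP-Gsdme with no overlap. The means were 681 ± 74.3 CPM in LNP-Gsdme and 332 ± 42.9 CPM in LNP-GFP (SD, n = 3 each), a log2 fold change of 1.04 ± 0.13 (SE; edgeR adjusted p = 0.00991). Without LNP-GFP 3 the log2 fold change was 1.06 with an adjusted p of 0.0679, and without LNP-Gsdme 1 or 2 the adjusted p was 0.0556 or 0.0526.

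Uba7 (chromosome 9, 107852704 to 107861259) encodes the E1 that is dedicated to ISG15. It reached 115, 121 and 103 CPM in LNP-Gsdme 1 to 3, against 64.2, 40.1 and 53.4 CPM in LNP-GFP 1 to 3. The groups did not overlap. The LNP-Gsdme libraries lay close together, and the LNP-GFP libraries were more spread, with LNP-GFP 1 the highest of them. Means were 113 ± 9.09 CPM in LNP-Gsdme and 52.6 ± 12.1 CPM in LNP-GFP (SD, n = 3 each), and the log2 fold change was 1.10 ± 0.17 (SE; edgeR adjusted p = 0.0188). It did not pass without LNP-GFP 3 (adjusted p = 0.0986), LNP-Gsdme 1 (0.0826) or LNP-Gsdme 2 (0.079).

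Ube2l6 (chromosome 2, 84629172 to 84640679) encodes the E2 that receives ISG15 from UBA7. Its level was 91.7, 158 and 80 CPM in LNP-Gsdme 1 to 3, against 43.8, 84.5 and 45 CPM in LNP-GFP 1 to 3. Here the groups overlapped: LNP-GFP 2 was above LNP-Gsdme 3, and replicate 2 was the highest library of both groups. The means of 110 ± 42.2 CPM in LNP-Gsdme and 57.7 ± 23.1 CPM in LNP-GFP (SD, n = 3 each) gave a log2 fold change of 0.93 ± 0.35 (SE), with an edgeR adjusted p of 0.131 and an unadjusted p of 0.036. The SE is about 3 times that of Herc6, whose fold change was nearly the same.

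Herc6 (chromosome 6, 57557985 to 57641617) encodes the ligase and had the smallest p of the members. It stood at 80.5, 90.7 and 77 CPM in LNP-Gsdme 1 to 3, against 40.8, 48.9 and 41.1 CPM in LNP-GFP 1 to 3, so both groups were tight and did not overlap. Means were 82.8 ± 7.1 CPM in LNP-Gsdme and 43.6 ± 4.57 CPM in LNP-GFP (SD, n = 3 each), and the log2 fold change was 0.92 ± 0.11 (SE; edgeR adjusted p = 0.00881). It was the member that passed with any 1 library left out except LNP-GFP 3, without which its log2 fold change was 0.89 and its adjusted p 0.0663.

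Usp18 (chromosome 6, 121222865 to 121247876) encodes the deconjugating protease. Its level was 102, 119 and 92.1 CPM in LNP-Gsdme 1 to 3, against 29.6, 78.7 and 54.1 CPM in LNP-GFP 1 to 3. The groups did not overlap, but the LNP-GFP libraries differed among themselves by a factor of 2.66 from lowest to highest, more than in any other member. Means were 104 ± 13.7 CPM in LNP-Gsdme and 54.1 ± 24.6 CPM in LNP-GFP (SD, n = 3 each). The log2 fold change was 0.95 ± 0.33 (SE), with an edgeR adjusted p of 0.109 and an unadjusted p of 0.0258. Leaving out LNP-GFP 1 gave 0.66 (adjusted p = 0.066), and leaving out LNP-GFP 2 gave 1.32 (adjusted p = 0.0548). At an unadjusted p below 0.05 all 5 members were higher in LNP-Gsdme, which holds for 16.1% of all tested genes.

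**Figure D1:**
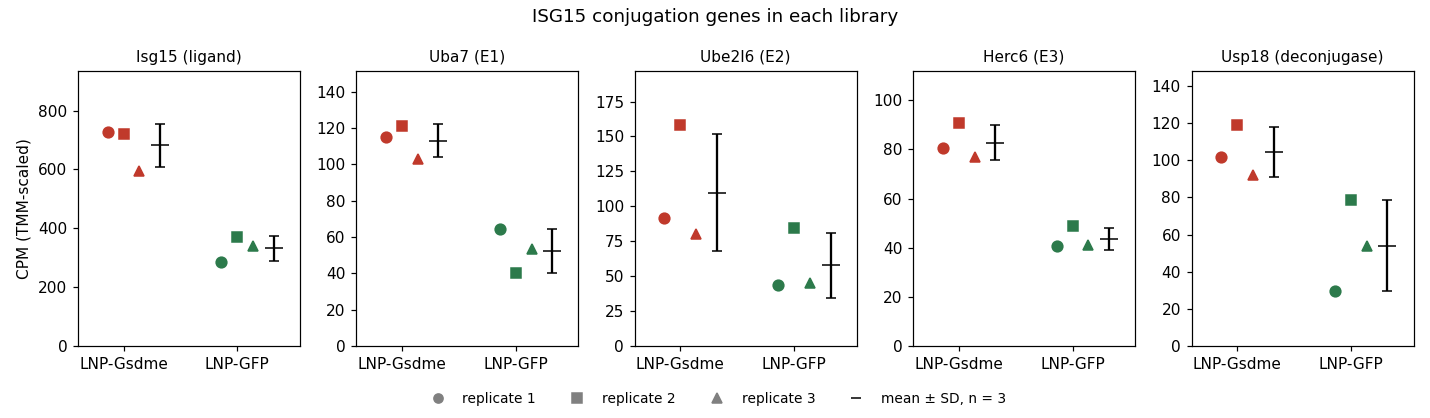
CPM of the 5 genes in each library (linear axes from 0, one panel per gene), with LNP-Gsdme left of LNP-GFP; symbols mark the replicate number, and the black bar gives the mean ± SD (n = 3). Isg15 and Herc6 are tight and separate, and Uba7 is separate but runs from 40.1 to 64.2 CPM in LNP-GFP. Usp18 spreads from 29.6 to 78.7 CPM in LNP-GFP, and Ube2l6 overlaps at 80 CPM in LNP-Gsdme 3 and 84.5 CPM in LNP-GFP 2.

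**Figure D2:**
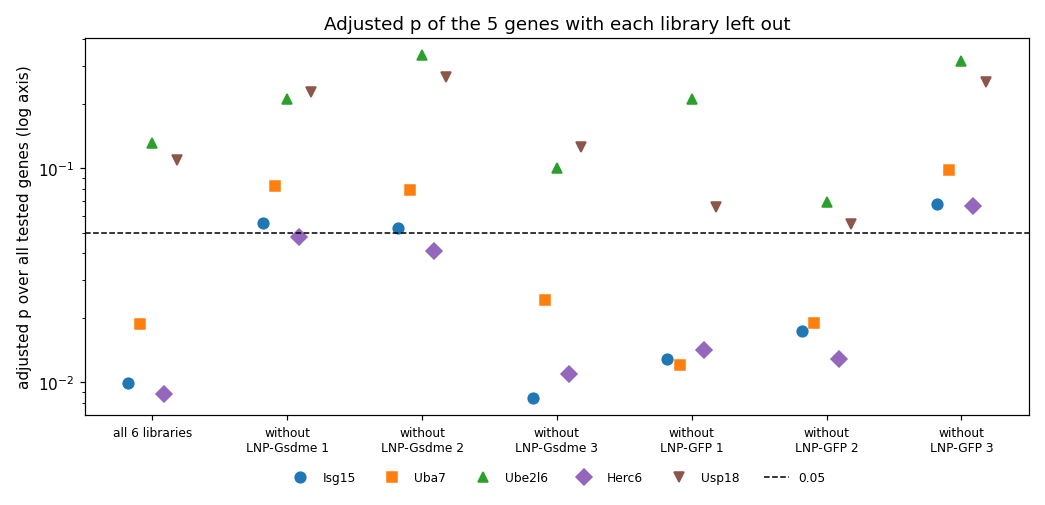
Adjusted p of each member (edgeR quasi-likelihood, log axis) with all 6 libraries and with each library left out; the dashed line is 0.05. Isg15, Uba7 and Herc6 lie under the line with all libraries, and 0 of 5 members do without LNP-GFP 3.

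Inside LNP-GFP the members did not keep 1 order. Around the mean of the LNP-GFP libraries, on the log2 CPM scale, Usp18 deviated by -0.76 in LNP-GFP 1 and 0.65 in LNP-GFP 2, while Uba7 deviated by 0.31 and -0.36 in these libraries, in the opposite sense. Isg15, Ube2l6 and Herc6 followed the order of Usp18, with small deviations in Isg15 and Herc6 (from -0.21 to 0.17). LNP-GFP 3 was between the other two for each member, as in most genes. In LNP-Gsdme the 3 libraries kept 1 order for the 4 enzymes, with replicate 2 highest and replicate 3 lowest.

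Markers of other cell types were present in all libraries, and some lists differed between the groups in their sum. Beside the counts of markers below, 6.3% of all 16010 tested genes passed upwards and 5.32% downwards. The 8 NK cell markers summed to 460.1 to 596 CPM in LNP-Gsdme and 115 to 445 CPM in LNP-GFP, with 1 higher past the edgeR test and Ncr1 below 1 CPM in each library. The 9 fibroblast markers summed to 2171 to 5636 CPM in LNP-Gsdme and 9079 to 10138 CPM in LNP-GFP, and 5 of them fell. The 8 conventional dendritic markers summed to 97.6 to 141 CPM in LNP-Gsdme and 149.5 to 184 CPM in LNP-GFP (3 fell and 1 rose). For the 6 endothelial markers the sums were 207 to 255 CPM in LNP-Gsdme and 257 to 295 CPM in LNP-GFP (0 fell and 0 rose). None of these 4 sums overlapped between the groups, though the endothelial sums nearly met, at 255 and 257 CPM. Among single genes, 3140 of the 16010 tested were higher and 2906 lower in LNP-Gsdme with no overlap. The 6 plasmacytoid dendritic markers summed to 1003 to 1137 CPM in LNP-Gsdme and 491 to 748 CPM in LNP-GFP, but 1 rose and 1 fell and their median log2 fold change was -0.74, so the sum and the median differ in sign. Sums overlapped for the 8 T cell markers, at 374 to 483 CPM in LNP-Gsdme and 157 to 430.4 CPM in LNP-GFP (0 rose and 0 fell). They also overlapped for the 7 melanoma markers, at 124 to 724 CPM in LNP-Gsdme and 324 to 1752 CPM in LNP-GFP (0 rose and 0 fell). The sum of the 10 monocyte markers also overlapped, at 8372 to 10403 CPM in LNP-Gsdme and 10019.9 to 10949 CPM in LNP-GFP, while 4 of them, Ly6c2 included, rose and 1 fell. In each list 0 markers were at 0 in all libraries. In such bulk samples fewer cells of a type and less RNA per cell cannot be told apart, and the part of these lists in the members' rise was not tested.

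Per length, the ligand was far more abundant than each of its enzymes in every library. In the deposited FPKM (fragments scaled to gene length and library total), Isg15 stood at 1023, 1028 and 877 in LNP-Gsdme 1 to 3, against 406, 515 and 479 in LNP-GFP 1 to 3. By this value it ranked 24th to 30th of all genes of the table in the LNP-Gsdme libraries and 95th to 115th in the LNP-GFP libraries. These ranks rest on the gene lengths behind the deposited FPKM, which are examined below, and were not recomputed with other lengths. The summed FPKM of the 4 enzymes was 68.8 to 101 in LNP-Gsdme and 30.8 to 54.9 in LNP-GFP. Isg15 made up 91.1 to 93.3% of the summed FPKM of the 5 members in LNP-Gsdme and 90.4 to 92.9% in LNP-GFP. Next came Usp18 and Ube2l6, which changed places between libraries (30.5 ± 3.68 and 33.4 ± 12.6 FPKM in LNP-Gsdme, 15.5 ± 6.87 and 17.2 ± 6.7 FPKM in LNP-GFP; SD, n = 3). Uba7 and Herc6 were the lowest, at 9.22 ± 0.596 and 7.85 ± 0.613 FPKM in LNP-Gsdme and at 4.22 ± 1.01 and 4.05 ± 0.383 FPKM in LNP-GFP (SD, n = 3), and in LNP-GFP they did not differ beyond their spread.

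The distance between the ligand and the enzymes depends on the gene lengths behind the deposited FPKM. The length that these values imply for Uba7 is 12341 bases, longer than the 8556 bases that the gene spans on the chromosome, while its only protein-coding transcript in GENCODE M21 has 3195 bases in 24 exons. For Isg15 the implied length is 703 bases, for Ube2l6 3316, for Herc6 10630 and for Usp18 3447, against longest protein-coding transcripts of 756, 1560, 4767 and 1771 bases. With these transcript lengths the ratio of Isg15 to Uba7 in LNP-Gsdme was 25.5 ± 1.25 in place of 106 ± 5.19 (SD, n = 3). The ratio to Herc6 was 52 ± 4.41 in place of 125 ± 10.6, that to Ube2l6 13.7 ± 3.77 in place of 31.3 ± 8.62, and that to Usp18 15.4 ± 1.3 in place of 32.1 ± 2.73. Isg15 stayed first and Herc6 last in all 6 libraries with these lengths, and this comparison of lengths was added after the data had been seen. A gene's length cancels in a fold change between the groups and in a difference of plain log2 ratios. It does not cancel on the log2(FPKM + 1) scale used below, or in the rank of a gene within a library.

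**Figure D3:**
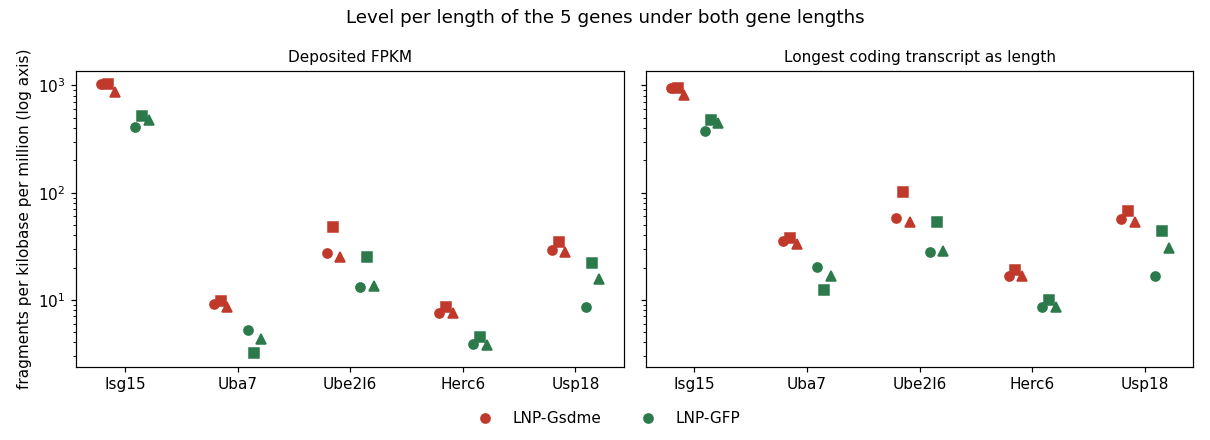
Level per length of the 5 genes (log axes; fragments scaled to length and library total) in each library, with LNP-Gsdme left of LNP-GFP; the left panel uses the deposited FPKM and the right panel the longest protein-coding transcript of GENCODE M21. Isg15 is highest in both panels, and Uba7 moves up most in the right panel, where Isg15 exceeds it by a factor of 25.5 in LNP-Gsdme in place of 106.

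The log2 ratio of the ligand to each enzyme differed between the groups by less than the larger of the groups' SDs. The log2 ratio of Isg15 to Uba7 in the deposited FPKM was 6.72 ± 0.07 in LNP-Gsdme and 6.81 ± 0.53 in LNP-GFP, and that of Isg15 to Usp18 was 5.0 ± 0.12 in LNP-Gsdme and 5.01 ± 0.52 in LNP-GFP (SD, n = 3 each). For Ube2l6 it was 4.93 ± 0.44 in LNP-Gsdme and 4.82 ± 0.41 in LNP-GFP, and for Herc6 6.96 ± 0.12 in LNP-Gsdme and 6.84 ± 0.12 in LNP-GFP. In this order the differences were -0.09, -0.01, 0.1 and 0.11, with unadjusted p-values of 0.7, 1, 0.6 and 0.4 (exact permutation test, two-sided; adjusted over the 4 ratios 0.933 to 1). With 3 against 3 libraries this test cannot go below 0.1. On the log2(FPKM + 1) scale the difference for Herc6 was 0.26 (exact permutation p = 0.1), and those for Uba7 and Usp18 turned positive. The ratios to Uba7 and Usp18 were less variable in LNP-Gsdme than in LNP-GFP: Isg15 exceeded Uba7 by a factor of 112, 104 and 101 in LNP-Gsdme 1 to 3, against 78.1, 162 and 112 in LNP-GFP 1 to 3. Whether the spread itself differed was not tested.

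A relative of each of the 3 conjugating enzymes did not pass. Uba1, the E1 of ubiquitin, stood at 456, 443 and 419 CPM in LNP-Gsdme 1 to 3, against 461, 461 and 462 CPM in LNP-GFP 1 to 3 (log2 fold change -0.07 ± 0.07 SE, edgeR adjusted p = 0.502), so its groups did not overlap but lay close together. Herc3, another HERC ligase, stood at 18.7, 15.7 and 12.5 CPM in LNP-Gsdme 1 to 3, against 14.8, 18.6 and 14.1 CPM in LNP-GFP 1 to 3 (-0.02 ± 0.18 SE, adjusted p = 0.941). Ube2l3, the relative of Ube2l6 that carries ubiquitin, was at 11.8, 11 and 11.3 CPM in LNP-Gsdme 1 to 3, against 11.8, 11.6 and 34.7 CPM in LNP-GFP 1 to 3. LNP-GFP 3 alone was high in Ube2l3, against its midway position in most genes. Taken per library, the log2 ratio of Uba7 to Uba1 was -1.96 ± 0.08 in LNP-Gsdme and -3.16 ± 0.34 in LNP-GFP, and that of Herc6 to Herc3 was 2.42 ± 0.27 in LNP-Gsdme and 1.46 ± 0.07 in LNP-GFP (SD, n = 3 each). Both differences, 1.2 and 0.96, had p = 0.1, the smallest that the exact permutation test allows (two-sided; 0.15 adjusted over the 3 ratios). The log2 ratio of Ube2l6 to Ube2l3 was 3.21 ± 0.56 in LNP-Gsdme and 1.71 ± 1.26 in LNP-GFP (exact permutation p = 0.2). That difference was 1.5, and 0.83 without LNP-GFP 3, the library high in Ube2l3, while the differences for Uba7 and Herc6 were 1.22 and 1.0 without it. These 3 ratios were chosen after the data had been seen, so their p-values add no support separate from the members' fold changes.

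The wider enzyme and modifier families had genes past the test in both directions, beside 6.3% of all tested genes upwards and 5.32% downwards. Among 9 other E1 enzymes, Atg7, which activates modifiers of autophagy, rose (log2 fold change 0.43 ± 0.11 SE, edgeR adjusted p = 0.048), and the list had 1 gene higher and 1 lower past the test. Of 31 tested other E2 enzymes Ube2q1 rose and Ube2j1, an E2 of the endoplasmic reticulum membrane, fell. Of 43 tested other USP proteases Usp38, Usp37 and Usp36 rose and Usp9x, Usp34 and Usp54 fell. The 4 other HERC genes did not pass (0 by edgeR, 0 at an unadjusted p below 0.05 and 0 by DESeq2 or limma-voom). Of 15 other modifiers, ubiquitin genes included, 0 passed, with 3 higher and 1 lower at an unadjusted p below 0.05, 2 by DESeq2 and 0 by limma-voom. Taken over these lists, 5 of 102 tested relatives rose and 5 fell, with a median log2 fold change of 0 beside -0.01 for all tested genes. That split moved with the scaling, to 2 and 5 with upper-quartile factors and to 9 and 3 with library size only.

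**Figure D4:**
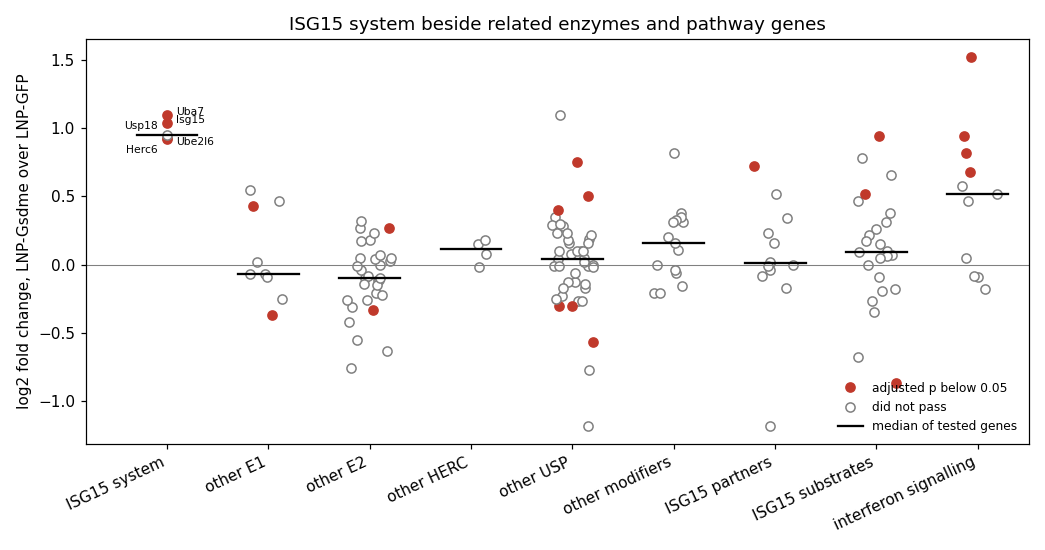
Log2 fold change, LNP-Gsdme over LNP-GFP, of each tested gene in the ISG15 system and in 8 lists of relatives and pathway genes; filled points have an edgeR adjusted p below 0.05, and the bar is the median of the list. The ISG15 genes lie between 0.92 and 1.10, and the 5 lists of relatives have medians between -0.1 and 0.16.

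Partners and reported substrates of ISG15 are set against the same 6.3% of all tested genes upwards and 5.32% downwards. Of 13 partners, Skp2, which marks USP18 for degradation, rose, at 6.24, 5.99 and 5.57 CPM in LNP-Gsdme 1 to 3 and 3.92, 3.34 and 3.55 CPM in LNP-GFP 1 to 3 (log2 fold change 0.72 ± 0.14 SE, edgeR adjusted p = 0.028). That was 1 of 13 upwards and 0 downwards, with a median log2 fold change of 0.01, and Skp2 did not pass without LNP-GFP 3, LNP-GFP 2, LNP-Gsdme 1 or LNP-Gsdme 2. Trim25, a ligase for both ubiquitin and ISG15, was high in both groups at 782 to 1090.2 CPM in LNP-Gsdme and 689.8 to 769.7 CPM in LNP-GFP, and did not pass (0.34 ± 0.13, adjusted p = 0.14). Arih1, a further ligase reported for ISG15, was at 184 ± 5.5 CPM in LNP-Gsdme and 184 ± 9.73 CPM in LNP-GFP (SD, n = 3 each; adjusted p = 0.969). Itgal and Itgb2, which form LFA-1, the receptor of secreted ISG15, did not pass, at log2 fold changes of -0.17 and -0.04. The list of 24 reported ISG15 substrates had a median of 0.10. In it 2 genes rose and 1 fell, and those that rose included Ifih1, a sensor of double-stranded RNA, with a log2 fold change of 0.52 ± 0.10 (SE; edgeR adjusted p = 0.0264). Without LNP-GFP 3, 0 substrates passed by edgeR, with 5 higher and 2 lower at an unadjusted p below 0.05, and 0 passed without LNP-Gsdme 1 (6 and 2) or LNP-Gsdme 2 (3 and 2).

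The genes that carry the type I interferon signal to ISG15 and its enzymes were not uniform. Of 11, 4 rose and 0 fell, beside 6.3% and 5.32% of all tested genes, with a median log2 fold change of 0.52. Irf7, an interferon regulatory factor that is itself interferon-stimulated, stood at 825, 828 and 724 CPM in LNP-Gsdme 1 to 3, against 325, 242 and 264 CPM in LNP-GFP 1 to 3 (log2 fold change 1.52 ± 0.13 SE, edgeR adjusted p = 0.00473). Socs1, a feedback inhibitor, and Tyk2, a kinase of the receptor, rose by 0.82 ± 0.14 and 0.68 ± 0.17. The transcription factor genes Stat2 and Irf9 did not pass: Stat2, whose protein also recruits USP18 to the receptor, was at 146 ± 15.1 CPM in LNP-Gsdme and 102 ± 27.9 CPM in LNP-GFP, and Irf9 at 127 ± 10.7 CPM in LNP-Gsdme and 122 ± 27.2 CPM in LNP-GFP (SD, n = 3 each; adjusted p = 0.141 and 0.854). The receptor genes Ifnar1 and Ifnar2, the subunit that USP18 binds, did not pass, at log2 fold changes of -0.09 and -0.08. The list's count was 1 without LNP-GFP 3, LNP-Gsdme 1 or LNP-Gsdme 2, fits in which 0.395%, 0.647% and 0.721% of all genes passed upwards.

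The genes whose profile over the 6 libraries was most like the mean of the 5 members were Lyl1, Jaml, Slfn1, Tmem154, Xaf1, Parp12, Oas2 and Mov10. Likeness was the root mean square distance between log2 CPM profiles centred on each gene's mean, and these 8 lay at 0.0909 to 0.114. The members themselves, which enter that mean, lay at 0.0899 for Isg15, 0.0938 for Herc6, 0.267 for Ube2l6, 0.284 for Usp18 and 0.342 for Uba7, so that these 8 genes were nearer to the members' mean than Uba7, Ube2l6 and Usp18 were. Xaf1 and Slfn1 had the log2 fold change of Isg15, 1.04, and Xaf1 stood at 105, 105 and 98.3 CPM in LNP-Gsdme 1 to 3, against 42.3, 56.1 and 52 CPM in LNP-GFP 1 to 3. The 8 genes were selected for the smallest distance to this mean profile, which holds the group difference. Their nearness and their similar fold changes are thus set by the selection and add no separate result. When likeness was Pearson's correlation, 0 of these 8 were among the 8 nearest, so the list depends on the measure. Their correlations were still 0.979 to 0.992, and they ranked 15th to 71st by it.

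The genes next to the members did not pass. Of the 10 protein-coding genes that flank them on either side in the deposited table, 7 were tested, and 0 rose and 0 fell by edgeR. Over all tested genes 6.3% rose and 5.32% fell, so 0 of 7 lies near that share. At an unadjusted p below 0.05 there were 0 higher and 2 lower, beside 2580 and 2471 of all 16010 tested genes. By DESeq2 0 rose and 2 fell, beside 9.93% and 9.71% of all genes. Agrn, 1967 bases from Isg15, had a log2 fold change of -0.12 ± 0.11 (SE), and Perm1, on the other side of Isg15 and below 1 CPM on average in both groups, of 0.96 ± 0.41 (edgeR adjusted p = 0.164). Inka1, 163 bases from Uba7, was at 0.11 ± 0.28, Serping1, next to Ube2l6, at -0.96 ± 0.30 (adjusted p = 0.0854) and Pyurf, next to Herc6, at -0.81 ± 0.20 (adjusted p = 0.0504). Genes that overlap a member held few counts: Gm45193, on the strand of Herc6, had 4 to 25 per library against 823 to 1495 for Herc6, and those inside Uba7, Ube2l6 and Usp18 had at most 5.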

How the data were processed

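RNA was sequenced from 3 LNP-Gsdme and 3 LNP-GFP libraries, grouped by their treatment label. The authors deposited raw counts and FPKM per gene, per the file headers. Coordinates are on GRCm39, the build named in the submitters' processing notes. The sources used here do not name the aligner, the counter or the strand setting. Library sizes were the totals of tested genes. The test was edgeR 4.0.16 under R 4.3.3: filterByExpr left 16010 genes, TMM factors were 0.98 to 1.04, and the robust quasi-likelihood test was adjusted by Benjamini-Hochberg over all of them. The fit was tested on simulated data. FPKM ratios were compared with exact permutation tests (scipy 1.17.1) on log2 ratios without a pseudocount. Members and lists were chosen with earlier results of these data known. Genes were named by a written rule: the members, list members that passed (up to 4 by smallest p), fixed relatives and the 8 nearest profiles whose log2 CPM averaged 2 or more. Genes outside it (Usp36, Usp54, Itgal, Itgb2, flanking and overlapping genes) were chosen afterwards, by role or position. Rigi was matched as Ddx58. Some genes that the rule names are not reported here. Alternatives were DESeq2 1.42.0, limma-voom 3.58.1, other scalings, filters and thresholds, a replicate block and each library left out. The labels do not state whether the replicate numbers pair the libraries. Deviations of same-numbered libraries from their group mean correlated at 0.214, -0.237 and 0.0315, and those of differently numbered libraries at -0.326 to 0.319. Deviations within a group of 3 depend on each other, and LNP-GFP 3 lies near its group mean, so these values cannot decide on pairing.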

Additional observations from a re-analysis of the deposited data

How the results depend on the processing

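Members that passed numbered 3 in the main test. They numbered 5 by DESeq2, 0 to 3 with a library left out, and 0 (5 at an unadjusted p below 0.05) with LNP-GFP 1 alone against LNP-Gsdme, a fit whose spread comes from LNP-Gsdme only. The other scalings, filters, limma-voom, fitting without robustness and stricter thresholds gave 2 or 3, and none of the members changed sign in any fit. Log2 fold changes ran from 0.95 to 1.26 for Isg15, 0.82 to 1.28 for Uba7, 0.58 to 1.33 for Ube2l6, 0.86 to 1.03 for Herc6 and 0.66 to 1.82 for Usp18, with adjusted p from 3.9e-10 to 0.0841, 4.87e-07 to 0.101, 0.0354 to 0.338, 7.22e-10 to 0.0866 and 0.023 to 0.266. The cause was not tested.

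With the replicate number as a block, a pairing that the labels do not state, 2 members passed (Ube2l6, edgeR adjusted p = 0.0354, and Herc6, 0.033). In that fit Isg15 (0.0537) and Uba7 (0.0627) did not pass. The block gave 155 genes in all (main 1859), 0 partners, 0 substrates, 0 relatives and 1 interferon signalling gene.

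All genes passing numbered 3020 by DESeq2, 88 to 2841 with a library left out, 12 with LNP-GFP 1 alone, 183 at an adjusted p below 0.01 and 514 at 2-fold or more. Partners numbered 0 to 2 with a library left out and 0 with LNP-GFP 1 alone or either stricter threshold. Substrates numbered 6 by DESeq2, 0 to 5 with a library left out and 0 with LNP-GFP 1 alone or either stricter threshold. Relatives numbered 16 by DESeq2, 2 without a low-count filter, 0 to 13 with a library left out and 0 with LNP-GFP 1 alone or either stricter threshold. Interferon signalling genes numbered 1 to 6 with a library left out, 0 with LNP-GFP 1 alone and 1 with either stricter threshold.

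Differences in the log2 ligand to enzyme ratio turned sign for Uba7 (0.08) and Usp18 (0.05) with log2(FPKM + 1), and that for Herc6 was 0.26 in place of 0.11 (exact permutation p = 0.1, the smallest possible). With a library left out they ran from -0.35 to 0.18 for Uba7, -0.12 to 0.36 for Ube2l6, 0.04 to 0.17 for Herc6 and -0.25 to 0.27 for Usp18.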
